A study of Mus musculus with 30 samples.

Results

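Polyamines are small, positively charged amines that bind RNA and other nucleic acids, and every growing cell makes them. Ornithine decarboxylase turns ornithine into putrescine, and spermidine and spermine synthase then extend putrescine with aminopropyl groups that come from decarboxylated S-adenosylmethionine. Antizymes bind ornithine decarboxylase and send it to the proteasome, and antizyme inhibitors bind antizyme in turn. Skeletal muscle keeps substantial amounts of spermine and spermidine, and spermine oxidase is known as a gene that is repressed in wasting muscle. The 10 genes of polyamine metabolism described here were looked up by symbol among the 56951 gene symbols of the deposited tables. They comprise 4 genes of synthesis (Odc1, Amd1, Srm, Sms), 3 of catabolism (Sat1, Smox, Paox) and 3 regulators of ornithine decarboxylase (Oaz1, Oaz2, Azin1). Each of the 10 had a single row in the tables, and all 10 were among the 12030 genes that were tested because their mean exceeded 20 reads and 0.5 FPKM.

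RNA came from the gastrocnemius muscle, sampled with the attached plantaris, of male wild-type C57BL/6J mice that lived singly with a running wheel. The 14 mice of the LD group stayed on a fixed 12-h light and 12-h dark cycle, and the 16 mice of the ADV group had the same cycle advanced by 8 h every 4 days, a chronic jet lag. All mice were 14 weeks old when the schedules began and were on them for 64 weeks, and there was 1 library per mouse. Muscle was collected over a range of daytime hours, at a point where the shifting cycle of the ADV mice coincided with that of the LD mice, and the sampling hour per mouse was not used. The comparison asks whether the chronic shift of the light cycle altered the RNA of these genes in aged muscle.

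Exons received 19015401 to 28512674 read pairs in each LD library and 18875468.5 to 25699603.5 in each ADV library, and they were 90.9 to 91.3% and 91.1 to 92.7% of the library totals. No 2 libraries of the same group agreed within counting error. The muscle genes Acta1 and Ckm and the fast myosins Myh1, Myh2 and Myh4 were abundant. Their summed level was 33499 to 44553 FPKM in LD mice and 31991 to 40719 FPKM in ADV mice. Acta1 and Ckm, which are not particular to fast fibers, made up much of it, at means of 17190 and 7638 FPKM. The log2 fold change, ADV minus LD, was -0.19 for Myh4, 0.12 for Myh1 and 0.21 for Myh2, and none of the 5 genes passed an FDR of 0.05. The slow fiber markers (Myh7, Tnnt1, Tnni1 and Myl3) varied far more, from 24.9 to 579 FPKM (median 337) in LD and from 141 to 1247 FPKM (median 458) in ADV mice. Of the markers of other cell types, Pecam1 of endothelium was higher in ADV mice (log2 fold change 0.16, edgeR FDR = 0.0323; summed markers 45.7 to 64.7 FPKM in LD and 51.9 to 68.3 in ADV) and Pdgfra of fibroblasts lower (-0.24, FDR = 0.0194; 230 to 310 FPKM and 199 to 306 FPKM), while no tested marker of adipocytes, leukocytes, red blood cells or Schwann cells passed. Pecam1 was 1 of 4 endothelial markers tested, and Pdgfra was 1 of 3 fibroblast markers tested. The others did not pass, at 0.07 for Cdh5, 0.25 for Kdr, -0.005 for Tek, -0.12 for Col1a1 and -0.11 for Dcn. In a bulk sample, fewer cells of a type and less RNA per cell cannot be told apart.

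The start regions of 3 of the genes are given first, because the study perturbs the circadian clock and these windows show which of them hold the sequence through which the clock is known to act. CLOCK and BMAL1 bind the E-box CACGTG, which is also a binding sequence of MYC, a known activator of polyamine synthesis. Each window runs from 250 bases before to 30 bases after the transcript start on GRCm39, 5′ to 3′ on the gene's own strand, with the E-box in capitals. Sms (chrX:156275254-156275533, minus strand) and Srm (chr4:148675710-148675989, plus strand) hold one each. The window of Amd1 (chr10:40178155-40178434, minus strand) holds none. Among the 10, Amd1 had the largest difference between the schedules in the fit of counts.
Sms: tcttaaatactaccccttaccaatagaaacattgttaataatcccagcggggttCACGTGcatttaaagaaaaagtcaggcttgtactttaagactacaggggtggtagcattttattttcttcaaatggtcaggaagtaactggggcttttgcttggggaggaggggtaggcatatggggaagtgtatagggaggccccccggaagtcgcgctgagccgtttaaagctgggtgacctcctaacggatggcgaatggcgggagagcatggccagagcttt
Srm: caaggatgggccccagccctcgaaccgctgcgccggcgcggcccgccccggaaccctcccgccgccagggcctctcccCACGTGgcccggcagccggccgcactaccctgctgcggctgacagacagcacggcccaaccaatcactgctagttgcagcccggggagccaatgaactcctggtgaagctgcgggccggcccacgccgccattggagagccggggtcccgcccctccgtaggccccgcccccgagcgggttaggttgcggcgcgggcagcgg
Amd1: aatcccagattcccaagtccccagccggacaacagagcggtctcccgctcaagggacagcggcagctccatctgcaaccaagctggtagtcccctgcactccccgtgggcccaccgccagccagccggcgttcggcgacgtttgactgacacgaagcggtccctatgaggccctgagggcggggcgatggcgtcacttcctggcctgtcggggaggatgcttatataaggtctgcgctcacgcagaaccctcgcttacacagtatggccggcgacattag
The first base of the E-box lay at position -196 from the start in Sms and at -172 in Srm. The E-box was found in 2 of the 10 windows, and in 9.53% of the windows of 12029 genes tested. Searched on both strands, the D-box (TTATGTAA or TTACGTAA), which DBP binds, was in 0 of the 10 and in 0.682% of all windows. The ROR element (TAGGTCA), bound by the ROR and REV-ERB receptors, was in 0 of the 10 and 1.65% of all, and the ATF4 element (TGATGNAA) in 0 of the 10 and 1.95% of all. A match is a description of letters, and a window without one says nothing about the factor.

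Compared with the LD group, transcripts of Amd1 and Sms were lower in ADV muscle, and none of the 10 genes was called higher. Amd1 was 25.4% lower and Sms 17.5% lower in the fit of counts. Of the 10 genes, 2 passed an FDR of 0.05 (edgeR quasi-likelihood F test, Benjamini-Hochberg adjustment over all genes tested), where 10.8% of all genes tested passed. In the direction of lower in ADV it was 2 of 10 against 5.2% of all genes, and in the direction of higher 0 of 10 against 5.61%. With the further condition of a fold change over 1.3 it was 1 of 10, Amd1, against 2.09% of all genes in either direction and 0.648% in the lower direction. The median log2 fold change, ADV minus LD, was 0.01 for the 10 genes and 0.00 for all genes tested, so the lower values were not shared by the group.

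**Figure D1:**
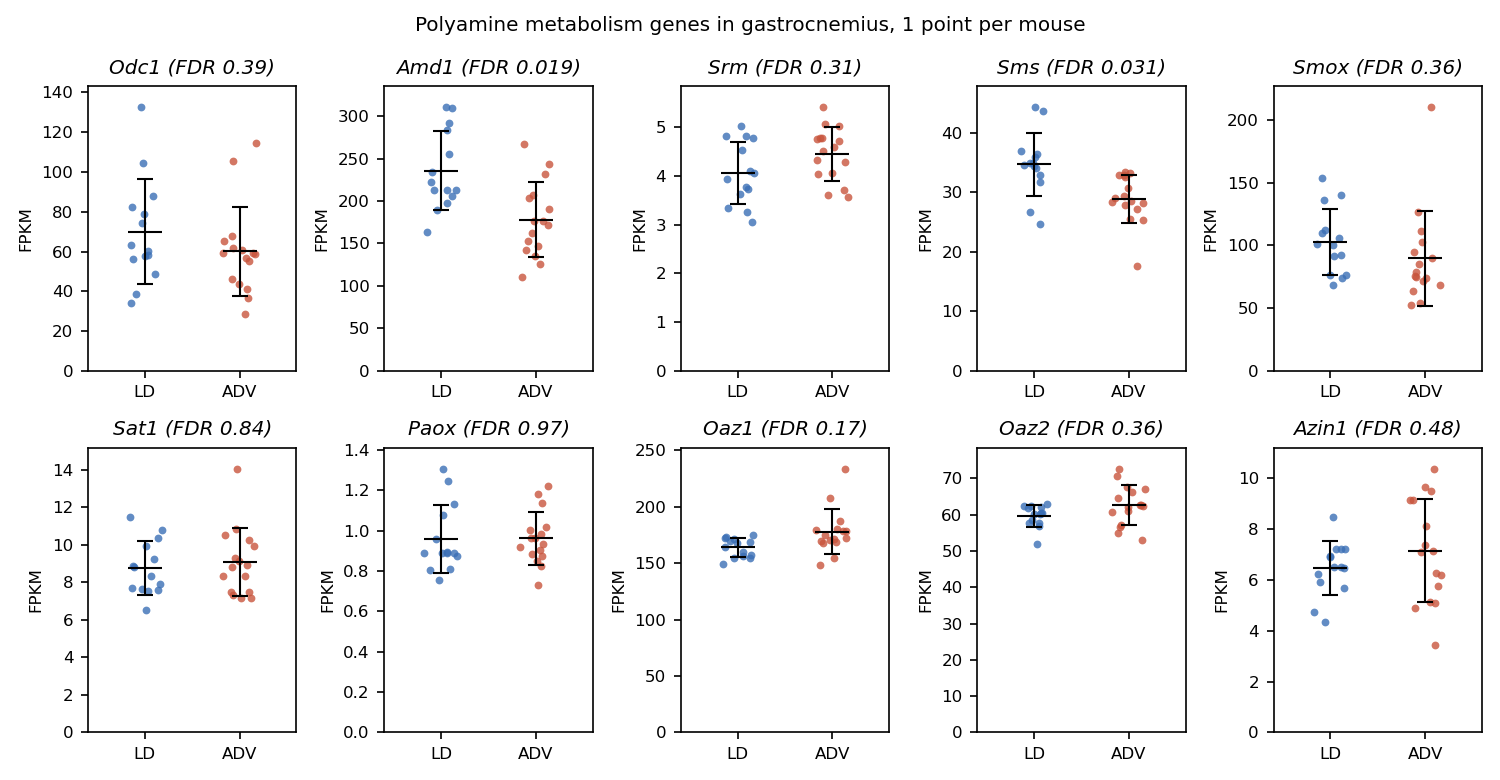
FPKM of the 10 polyamine metabolism genes (vertical axes from 0) in each LD mouse (blue) and each ADV mouse (red), with the group mean and SD as black bars and the FDR of the comparison of counts above each panel. For Sms all 16 ADV mice lie below the LD median of 34.7 FPKM, while for Paox, Sat1 and Odc1 the groups overlap over most of their range.

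Among the genes of synthesis, Odc1 encodes ornithine decarboxylase, the first and highly regulated enzyme of the pathway. Its level ran from 34.3 through a median of 61.8 to 133 FPKM in LD mice and from 28.7 through 59.2 to 114 FPKM in ADV mice. Apart from 1 ADV mouse below the lowest LD mouse and 1 LD mouse above the highest ADV mouse, the groups covered the same range. The means were 69.9 ± 26.3 FPKM (SD, n = 14) and 60.2 ± 22.3 FPKM (n = 16), and the log2 fold change of -0.24 (95% interval -0.61 to 0.13) did not pass (edgeR FDR = 0.385). It was -0.12 without LD mouse 33, the highest in Odc1, and -0.06 as the log2 ratio of the group medians. Odc1 was among the most variable genes of the muscle within both groups. Its coefficient of variation was 37.7% in LD and 37.1% in ADV mice, above that of 95.9% and 95.7% of the genes tested, whose medians were 12.4% and 14.3%.

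Amd1 encodes S-adenosylmethionine decarboxylase, which makes the aminopropyl donor for both synthases, and was the most abundant of the 10 genes. Levels in LD mice went from 163 FPKM through a median of 218 to 311 FPKM, and in ADV mice from 110 through 174 to 267 FPKM. The groups overlapped, but 13 of 16 ADV mice lay below the LD median and 7 lay below the lowest LD mouse. The mean was 236 ± 46.5 FPKM (SD, n = 14) in LD and 178 ± 44.1 FPKM (n = 16) in ADV mice. The log2 fold change was -0.42 (SE 0.11, 95% interval -0.66 to -0.19, edgeR FDR = 0.0189). It remained past the threshold whichever library was left out, at -0.47 to -0.38. Reads of the near-identical copies Amd2 (mean 89.7 reads), Amd-ps3 (69.3), Amd-ps1 (20.1), Amd-ps7 (20.1), Amd-ps5 (13.8), Amd-ps4 (3.6) and Amd-ps6 (0.75) may belong to Amd1, which itself had a mean of 15950 reads. With them added, the value stayed at -0.42 (edgeR FDR = 0.0193).

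Srm, spermidine synthase, was expressed at a low level of 3.06 to 5.02 FPKM (median 4.00) in LD and 3.56 to 5.42 FPKM (median 4.55) in ADV mice. The ranges largely overlapped, and the log2 fold change of 0.11 (95% interval -0.04 to 0.26) did not pass (edgeR FDR = 0.305).

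Sms, the X-linked spermine synthase gene, ranged from 24.6 through a median of 34.7 to 44.3 FPKM in LD mice and from 17.6 through 28.8 to 33.4 FPKM in ADV mice. All 16 ADV mice were below the LD median, and 10 of 14 LD mice were above the highest ADV mouse. The means were 34.7 ± 5.28 FPKM (SD, n = 14) and 28.95 ± 4.04 FPKM (n = 16), with a log2 fold change of -0.28 (SE 0.08, 95% interval -0.45 to -0.11, edgeR FDR = 0.0307). The call was lost without LD mouse 28, at -0.25 (edgeR FDR = 0.0609), without LD mouse 35, at -0.24 (FDR = 0.0530), with no filter on low counts, at -0.27 (FDR = 0.0665), and over the 28 libraries whose label number occurs in both groups, at -0.24 (FDR = 0.0513). The pseudogene row Sms-ps had a mean of 18.97 reads against 2864 for Sms.

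Both calls were lost under 3 other fits, and the differences became smaller in each of them. The ratio of the clock genes Dbp and Bmal1 differed in level between the groups. With it as a covariate the log2 fold changes were -0.29 for Amd1 (SE 0.16, edgeR FDR = 0.411) and -0.27 for Sms (SE 0.12, FDR = 0.317). The value of Sms thus hardly moved from -0.28, while the SE rose from 0.08 for Sms and from 0.11 for Amd1. In that fit 0 of the 12030 genes passed and 1667 had an unadjusted p under 0.05. The transcripts of Amd1 and Sms have a GC content of 41.5% and 43.5%, below the median of 50.4% over the genes tested. With each library's trend with GC content removed, the values were -0.31 for Amd1 (edgeR FDR = 0.115) and -0.20 for Sms (FDR = 0.151), and 603 genes passed in all. The other 2 genes of low GC content moved upward in the same fit, Azin1 (41.2% GC) from 0.13 to 0.25 and Sat1 (44.6%) from 0.03 to 0.10. Genes of higher GC content moved downward. Srm (60.2%) went from 0.11 to -0.01, Oaz1 (56.7%) from 0.10 to 0.02 and Oaz2 (53.4%) from 0.05 to 0.01. For Smox (55.7%) and Odc1 (53.7%) the difference grew, from -0.22 to -0.29 and from -0.24 to -0.28. Their values in this fit (edgeR FDR = 0.253 and 0.358) lay between those of Amd1, -0.31, and Sms, -0.20. Amd1 and Sms thus no longer stood apart from Smox and Odc1 in size. Apart from Amd1 and Sms in the main comparison, none of the genes named for this fit passed in either fit.

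The third fit had the slow fiber markers as a covariate and was added once the data had been examined. It gave -0.28 for Amd1 (edgeR FDR = 0.0833) and -0.20 for Sms (FDR = 0.119), with 539 genes passing. Odc1 was at -0.09 and Smox at -0.06 in this fit. None of the 4 slow fiber markers passed the test between the groups, at log2 fold changes of 0.45 to 0.65. Within the groups, both transcripts were negatively correlated with these markers, although Sms in LD mice did not pass. Sms against the summed slow fiber markers, both on the log2 FPKM scale, had r = -0.83 (two-sided permutation test, p = 4e-05) and rho = -0.76 (p = 0.00085) over the 16 ADV mice, and r = -0.71 without the 2 mice farthest from the median of the markers. Over the 14 LD mice Sms had r = -0.34 (permutation p = 0.232), rho = -0.40 (p = 0.156), and r = -0.51 without 2 mice. Amd1 had r = -0.65 (permutation p = 0.00959), rho = -0.75 (p = 0.0032), and r = -0.54 without 2 mice in LD, against r = -0.66 (p = 0.00449), rho = -0.47 (p = 0.0697), and r = -0.44 without 2 mice in ADV. These are from 20 such relations, of which 5 had an unadjusted Pearson p under 0.05. ADV mouse 24 had the highest slow fiber sum, 1247 FPKM, and the lowest Odc1, Amd1, Sms and Smox of the ADV mice. Without this mouse Amd1 (log2 fold change -0.39, edgeR FDR = 0.0264) and Sms (-0.24, FDR = 0.0325) still passed. The part of fiber type, GC content and clock phase in the lower values was not tested beyond these fits.

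**Figure D2:**
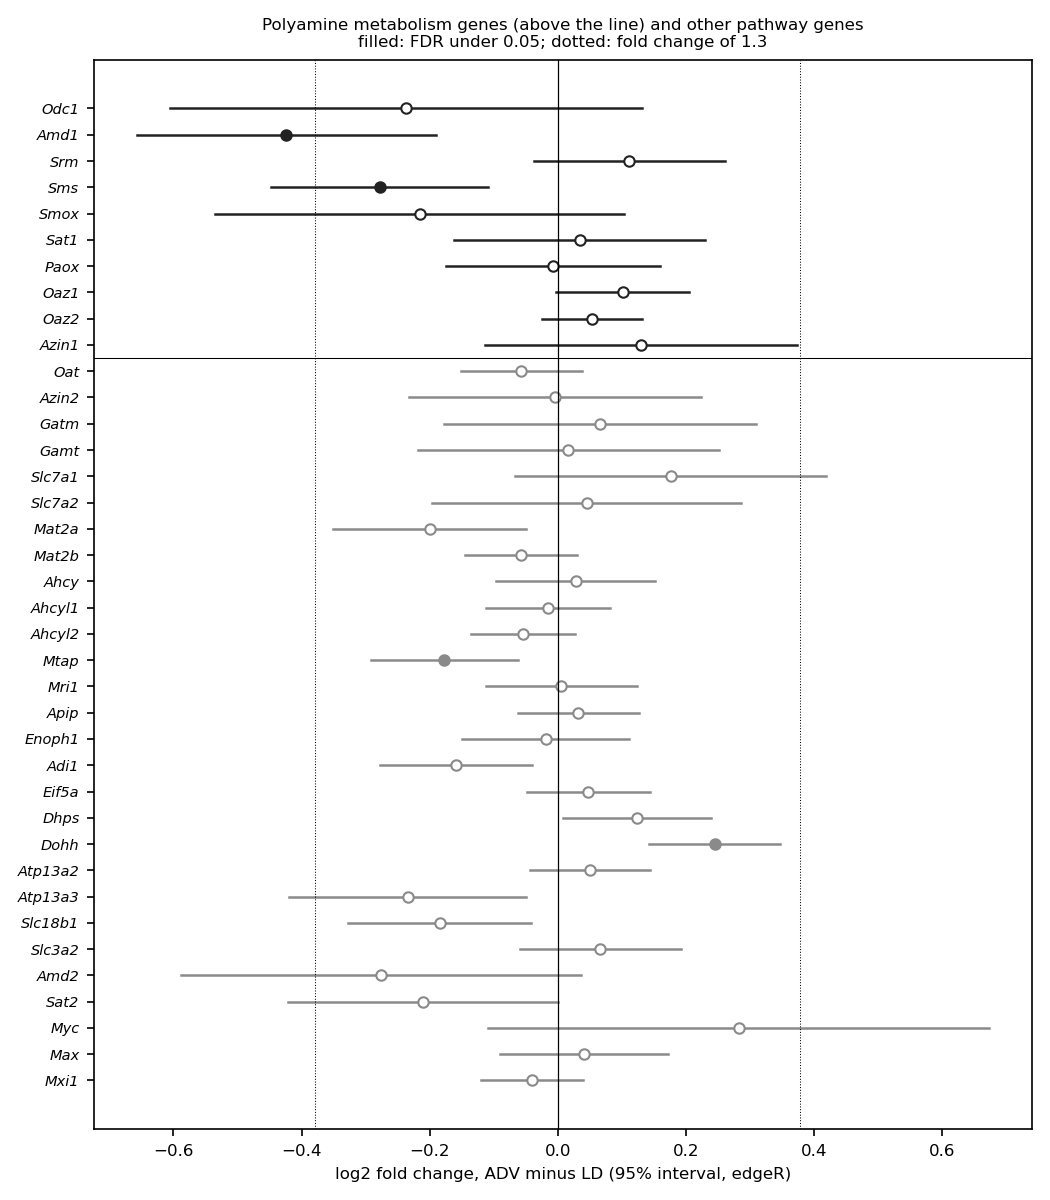
The log2 fold change, ADV minus LD, from the fit of counts (points) with its 95% interval (lines) for the 10 polyamine metabolism genes above the horizontal line and 28 other pathway genes below it; filled points passed an FDR of 0.05 and dotted lines mark a fold change of 1.3. Amd1 (-0.42) and Sms (-0.28) are the filled points of the upper part, and Mtap (-0.18) and Dohh (0.24) those of the lower part.

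Of the genes of catabolism, Smox encodes spermine oxidase, which converts spermine back to spermidine. Smox ran from 68.1 through a median of 100 to 154 FPKM in LD mice and from 52.2 through 77.5 to 210 FPKM in ADV mice. Below the LD median lay 12 of 16 ADV mice, and yet the highest of all 30 mice, mouse 28 at 210 FPKM, was an ADV mouse. The log2 fold change of -0.22 (SE 0.16, 95% interval -0.53 to 0.10) did not pass (edgeR FDR = 0.359), and without any single library it stayed between -0.34 and -0.16, with an FDR of at least 0.0847. As the log2 ratio of the group medians it was -0.37 (Wilcoxon rank-sum FDR = 0.222). For Amd1 the ratio of medians was -0.33 (rank-sum FDR = 0.0298). In ADV mice its coefficient of variation, 42.2%, was above that of 97.1% of genes, and in LD mice, at 25.5%, above that of 87.1%.

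Sat1, the acetyltransferase that marks spermidine and spermine for export or oxidation, was at 6.54 to 11.5 FPKM (median 8.56) in LD and 7.15 to 14.1 FPKM (median 8.85) in ADV mice. Paox, the peroxisomal oxidase of acetylated polyamines, was the least abundant of the 10 genes, at 0.756 to 1.31 FPKM (median 0.890) in LD and 0.731 to 1.22 FPKM (median 0.949) in ADV mice. Both ranges overlapped almost fully. The log2 fold changes were 0.03 for Sat1 (95% interval -0.16 to 0.23, edgeR FDR = 0.841) and -0.01 for Paox (-0.17 to 0.16, FDR = 0.965), and the sign of each turned under some of the alternatives. Another gene model on the same strand covers 11.6% of the exon bases of Sat1. Paox rested on a mean of 109 reads and Srm on 138, so that their counting error was the largest of the group.

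Among the regulators, Oaz1, the main antizyme gene, was nearly constant in LD mice. Its level was 149 to 175 FPKM (median 166) in LD and 149 to 234 FPKM (median 174) in ADV mice. Of the ADV mice, 14 of 16 lay above the LD median and 7 above the highest LD mouse, but 1 lay below the lowest. The log2 fold change was 0.10 (SE 0.05, 95% interval -0.0021 to 0.21) and did not pass (edgeR FDR = 0.175). Oaz1 had a coefficient of variation of 5.05% in LD mice, with only 4.23% of the genes tested varying less, and of 11.2% in ADV mice. Oaz2, a second antizyme gene, behaved alike in spread, at 52.0 to 62.9 FPKM (median 60.3) in LD and 53.1 to 72.7 FPKM (median 62.5) in ADV mice. Its log2 fold change was 0.05 (95% interval -0.03 to 0.13, edgeR FDR = 0.359), and its coefficient of variation was 4.96% in LD and 8.77% in ADV mice. For Oaz1, 21.1% of the exon bases are overlapped on the opposite strand by Gm68058, and whether the counting used the strand is not given in the sources used here.

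Azin1, the antizyme inhibitor gene, was at 4.34 to 8.48 FPKM (median 6.51) in LD and 3.43 to 10.4 FPKM (median 7.12) in ADV mice. Of the ADV mice, 5 lay above the highest LD mouse and 1 below the lowest. The log2 fold change of 0.13 (95% interval -0.11 to 0.37) did not pass (edgeR FDR = 0.480). Gm49077 covers 12.0% of its exon bases on the opposite strand but had a mean of 2.02 reads.

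Compared per length, on the FPKM scale, the order of the mean levels over all 30 mice was Amd1, Oaz1, Smox, Odc1, Oaz2, Sms, Sat1, Azin1, Srm and Paox. Amd1, at a mean of 205 FPKM, was higher than 98.1% of the genes tested, and Paox, at 0.961 FPKM, higher than 10.4%. Neighbours in this order were distinct in most mice, with 2 exceptions. Odc1 was above Oaz2 in 7 of 14 LD and 6 of 16 ADV mice. Amd1 was above Oaz1 in 14 of 14 LD mice but in 6 of 16 ADV mice.

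Around these genes, 38 others of the pathway were listed, of which 28 were expressed enough to be tested. In the ADV group 1 was higher and 1 lower, against 5.61% and 5.2% of all genes, a share of the list near the background, and the median log2 fold change of the 28 was 0.00. Dohh, deoxyhypusine hydroxylase, which completes the spermidine-derived hypusine residue of the translation factor eIF5A, was higher, at 19.4 ± 1.50 FPKM (SD, n = 14) in LD and 23.2 ± 2.49 FPKM (n = 16) in ADV mice (log2 fold change 0.24, SE 0.05, edgeR FDR = 0.00377). The other 2 tested genes of the hypusine list did not pass. Mtap, which clears the methylthioadenosine that both synthases release, was lower, at 4.19 ± 0.579 FPKM (n = 14) in LD and 3.74 ± 0.306 FPKM (n = 16) in ADV mice (log2 fold change -0.18, SE 0.06, edgeR FDR = 0.0396). It was 1 of 5 genes of methylthioadenosine salvage tested. Called were 0 of 6 genes of arginine and ornithine metabolism, 0 of 5 of S-adenosylmethionine metabolism, 0 of 4 transporters, 0 of 2 paralogs and other enzymes of catabolism and 0 of 3 regulators of the Myc network. The remaining 10 listed genes were not expressed enough to be tested, among them Arg1, Arg2, Oaz3 and Aoc1, each with a mean under 2 reads.

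The relation to the clock was read within each group from the ratio of Dbp, an output gene of CLOCK and BMAL1, to Bmal1, whose rhythm runs opposite to that of Dbp. The log2 ratio was -2.14 to 3.31 (median 1.29) in LD mice and -2.44 to 1.40 (median -1.03) in ADV mice, so that the groups differed in level and the LD mice spanned more of the scale. The slope of each gene was its change in log2 units per unit of the log2 ratio. None of the 10 genes had a slope that passed an FDR of 0.05 over all genes, within LD (0.316% of all genes passed), within ADV (0.0249%) or for the difference of slopes (0%, with 1252 genes at an unadjusted p under 0.05 and 0 past the FDR with limma). At an unadjusted p under 0.05 were 1, 1 and 2 of the 10 genes in these 3 tests of edgeR, against 12.6%, 6.68% and 10.4% of all genes.

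**Figure D3:**
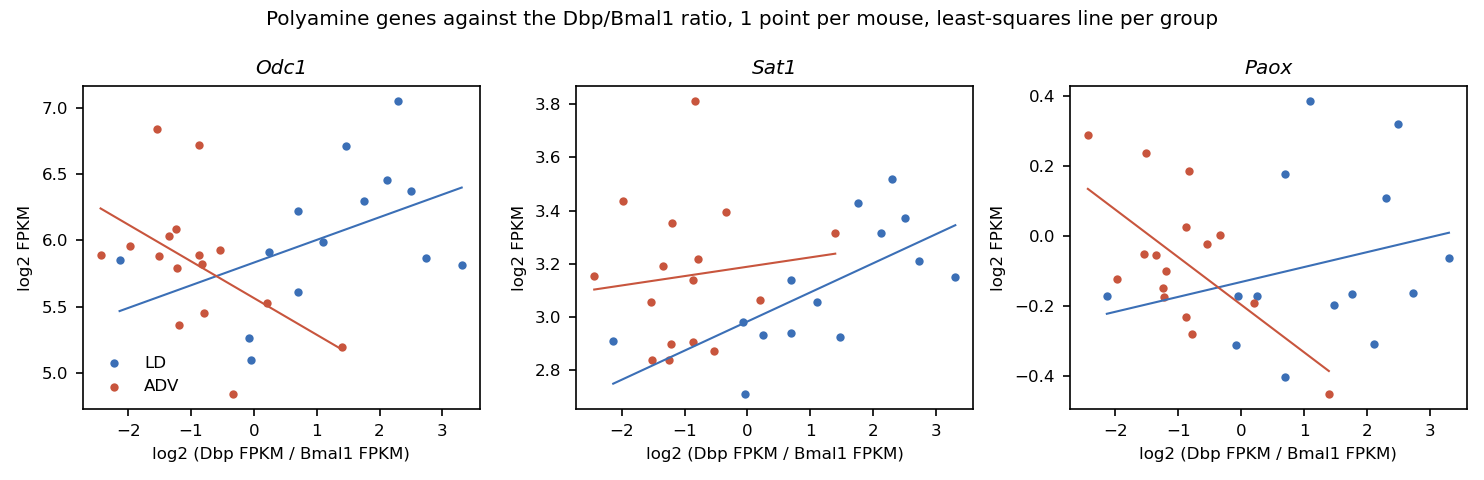
Log2 FPKM of Odc1, Sat1 and Paox (vertical axes) against the log2 ratio of Dbp to Bmal1 FPKM (horizontal axes) in each LD mouse (blue) and each ADV mouse (red), with a least-squares line per group. Odc1 slopes upward in LD mice (r = 0.46) and downward in ADV mice (r = -0.49), and no slope of these genes passed an FDR of 0.05.

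Odc1 had opposite slopes in the 2 groups, 0.18 (SE 0.09, unadjusted edgeR p = 0.0527) in LD and -0.29 (SE 0.14, p = 0.0506) in ADV mice. The difference of the slopes was -0.47 (SE 0.17, unadjusted p = 0.00891), which was not past the threshold over all genes (edgeR FDR = 0.275). It lay between -0.58 and -0.41 without any single library. In the LD mice the correlation on the log2 FPKM scale was r = 0.46 (two-sided permutation test, p = 0.0965) and rho = 0.49 (p = 0.0773), and r = 0.70 without the 2 mice farthest from the median ratio, 30 and 34. In the ADV mice it was r = -0.49 (permutation p = 0.0589) and rho = -0.59 (p = 0.0203), and r = -0.45 without mice 21 and 31.

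Sat1 was higher in LD mice with a higher ratio, with a slope of 0.11 (SE 0.05, unadjusted edgeR p = 0.0247, FDR = 0.296). The correlation was r = 0.67 (permutation p = 0.00789) and rho = 0.76 (p = 0.0026) over the 14 LD mice, and r = 0.80 without 2 of them. Over the 16 ADV mice Sat1 had r = 0.12 (permutation p = 0.662) and rho = 0.19 (p = 0.486), and r = 0.01 without 2 of them. The difference of the slopes, -0.09, had an unadjusted edgeR p of 0.321.

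Paox had a slope of -0.14 in ADV mice (SE 0.06, unadjusted edgeR p = 0.0314, FDR = 0.695), and the difference from LD was -0.19 (SE 0.07, p = 0.0172, FDR = 0.335). Its correlation in ADV mice, r = -0.62 (permutation p = 0.0105) with rho = -0.42 (p = 0.104), rested on mice 21 and 31, since it was r = -0.15 without them. Oaz2 in LD mice had r = -0.51 (permutation p = 0.0647), rho = -0.64 (p = 0.017) and r = -0.61 without 2 mice, opposite in sign to Odc1. Amd1 and Sms, the genes that differed between the schedules, had slopes of 0.10 (edgeR FDR = 0.529) and 0.03 (FDR = 0.878) in LD and -0.04 (FDR = 0.976) and -0.06 (FDR = 0.940) in ADV mice.

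Atf4 encodes a transcription factor of the integrated stress response, which raises genes of amino acid supply. It was at 64.8 to 89.0 FPKM (median 76.2) in LD and 69.3 to 116 FPKM (median 86.9) in ADV mice. Against log2 Atf4 FPKM, 0 of the 10 genes had a slope past an FDR of 0.05 within LD (0% of all genes, with 607 at an unadjusted p under 0.05), within ADV (1.21% of all genes) or for the difference (0%, with 432 genes at an unadjusted p under 0.05), by edgeR or by limma. At an unadjusted p under 0.05 were 0, 3 and 1 of the 10 genes in these 3 tests of edgeR, against 5.05%, 20.9% and 3.59% of all genes.

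**Figure D4:**
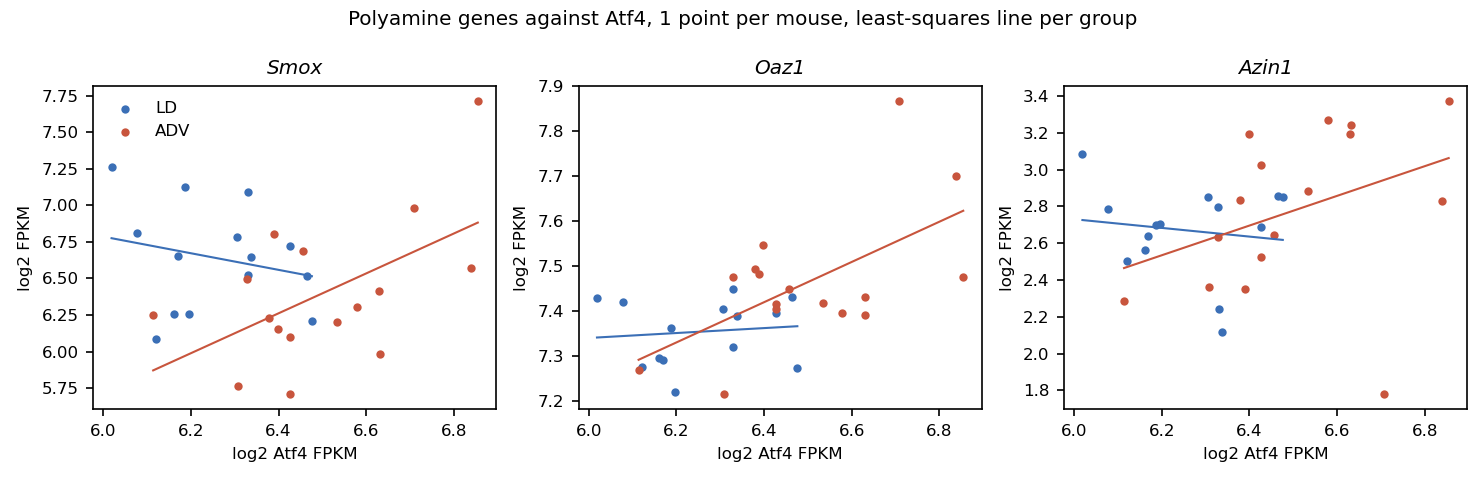
Log2 FPKM of Smox, Oaz1 and Azin1 (vertical axes) against log2 Atf4 FPKM (horizontal axes) in each LD mouse (blue) and each ADV mouse (red), with a least-squares line per group. In ADV mice all 3 lines slope upward, and the slope of Smox leans on mouse 28, the highest in both Smox and Atf4.

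The 3 genes within ADV were Smox, Oaz1 and Azin1. Smox had a slope of 1.43 (SE 0.46, unadjusted edgeR p = 0.00369, FDR = 0.0832) in ADV mice and -0.68 (SE 0.72, p = 0.354) in LD mice, with a difference of 2.11 (SE 0.85, p = 0.0191, FDR = 0.992). Over the 16 ADV mice the correlation was r = 0.55 (permutation p = 0.0279) and rho = 0.39 (p = 0.133), and r = 0.28 without mice 25 and 28, so that it rested on them. Oaz1 had a slope of 0.47 (SE 0.16, unadjusted edgeR p = 0.00726, FDR = 0.102) in ADV mice. Its correlation was r = 0.58 (permutation p = 0.0169) and rho = 0.31 (p = 0.247), and r = 0.56 without the same 2 mice. With each of the 30 libraries left out in turn, the slope of Oaz1 was 0.32 to 0.64, and 29 of these fits did not pass (edgeR FDR up to 0.362). The exception was the fit without ADV mouse 28, at 0.64 (edgeR FDR = 0.0452). Azin1 had a slope of 0.93 (SE 0.41, unadjusted edgeR p = 0.0319, FDR = 0.192), with r = 0.36 (permutation p = 0.17), rho = 0.49 (p = 0.054), and r = 0.24 without mice 25 and 28. In all, 40 correlations with the 2 axes were computed, of which 4 had an unadjusted Pearson p and 3 an unadjusted Spearman p under 0.05.

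Some of the genes varied together from mouse to mouse, in a pattern that followed their roles only in part. Over the 30 mice, with the group means removed and on the log2 CPM scale, 6 of 45 pairs had r over 0.5 and 1 had r under -0.5, and the median r was 0.05. Of the 45 pairs, 26 had r above 0. The share of pairs with r over 0.5 among all genes tested was not computed. The libraries share their scaling, so these values are a description and were not tested. Odc1, Amd1, Sms and Smox formed one set, with r = 0.72 for Amd1 and Smox, 0.70 for Amd1 and Sms, 0.69 for Odc1 and Sms, 0.62 for Odc1 and Amd1, 0.54 for Odc1 and Smox, and 0.46 for Sms and Smox. The set thus held 3 enzymes of synthesis and the oxidase that reverses the last step, but not Srm, whose r with these 4 genes was between -0.18 and 0.04. The edge of the set was not sharp. Oaz1 had r = 0.49 with Smox (rho = 0.54), above the value for Sms and Smox. With Amd1, Sms and Odc1 it had r = 0.39, 0.30 and 0.04. All 4 genes of the set were also negatively correlated with the summed slow fiber markers in both groups. For Odc1 r was -0.24 (permutation p = 0.407) in LD and -0.50 (p = 0.0497) in ADV mice. For Smox it was -0.53 (permutation p = 0.0488) in LD and -0.43 (p = 0.0989) in ADV mice. The part of fiber type in this set was not tested. For Amd1 and Srm the value of -0.01 joined r = 0.44 in LD and -0.43 in ADV mice, a difference that was not tested.

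**Figure D5:**
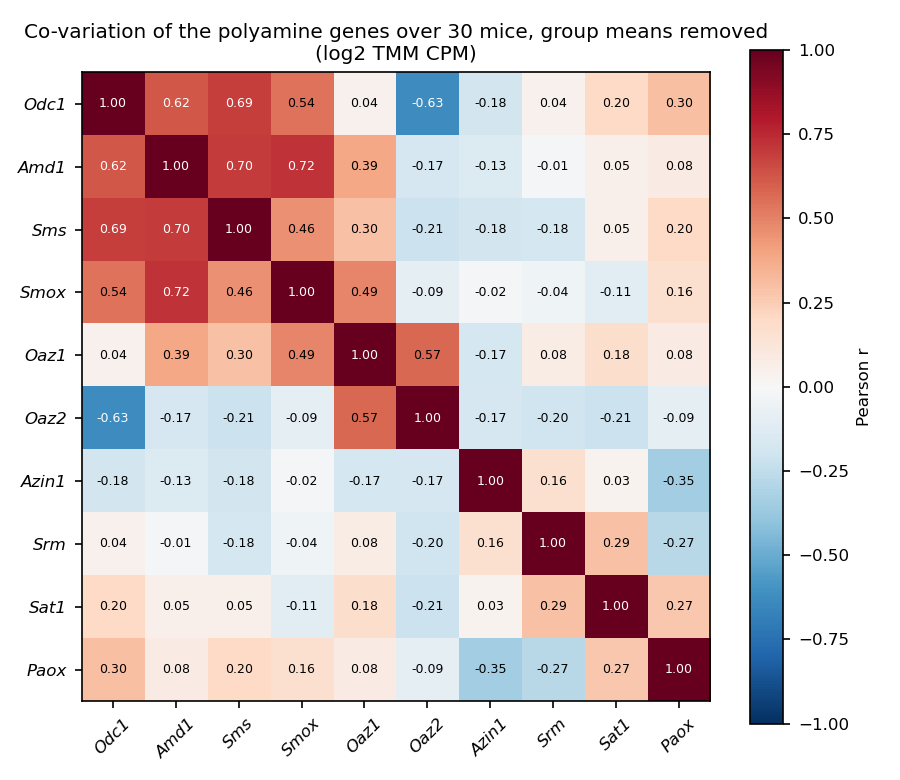
Pearson r between each pair of the 10 polyamine metabolism genes over 30 mice, from log2 CPM with the mean of each group removed (colour scale from -1, blue, to 1, red, with each value printed). Odc1, Amd1, Sms and Smox form a block with r from 0.46 to 0.72, and Odc1 and Oaz2 have the lowest value, -0.63.

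The pairs of this set were positive in both groups, from 0.72 in LD and 0.73 in ADV mice for Amd1 and Smox to 0.49 and 0.45 for Sms and Smox. Without the 2 mice farthest out, r was 0.63 for Amd1 and Smox, 0.63 for Amd1 and Sms, and 0.66 for Odc1 and Sms. It was lower for Odc1 and Amd1 (0.49), Odc1 and Smox (0.43), and Sms and Smox (0.29). For the last 2 pairs rho over all mice was 0.39. Odc1 and Oaz2, an enzyme and its antizyme, were opposed, with r = -0.63 (rho = -0.69) over all mice, -0.77 in LD and -0.61 in ADV mice, and -0.58 without the 2 mice farthest out. The 2 antizyme genes had r = 0.57, but 0.08 in LD and 0.68 in ADV mice, and rho = 0.30. ADV mouse 28 was the highest of its group for Odc1, Amd1, Smox and Azin1, and LD mouse 28 the highest of its group for Amd1, Sms, Smox and Azin1.

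The genes whose pattern over the 30 mice was most like that of Odc1, by the same r among all genes tested, were Stt3b (0.85), Nt5dc3 (0.81) and 1700001O22Rik (0.80). For Amd1 they were Cdk19 (0.93), Amd2 (0.92) and Amd-ps3 (0.87), of which the last 2 are near-identical copies that may hold reads of Amd1. Cdk19, a kinase of the Mediator complex, was itself lower in ADV mice (log2 fold change -0.31, edgeR FDR = 0.0435). For Smox they were Gpc1 (0.87), Prxl2b (0.84) and Pgm1 (0.83), and none of these 3 passed the test between the groups (edgeR FDR from 0.184 to 0.954).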

How the data were processed

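Gastrocnemius RNA of 30 mice was sequenced in 101-bp paired-end reads after poly(A) selection with a stranded kit. The authors used Trimmomatic for trimming and STAR 2.7.10a for mapping to GRCm39 (version from the submitters' processing notes), then removed reads of mapping quality below 10 and counted exons of UCSC known canonical transcripts with HOMER 4.11, in which each mate counts as 0.5 read. The deposited estimated counts, 14.8% of them not whole, were rounded before testing. The deposited FPKM values, which the authors derived from the same counts, exon length and library total, were used for levels, correlations and the filter. Counting error is large near the minimum of 20 reads.

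The longest row of a symbol with a mean over 20 reads was kept. Groups were compared with edgeR 4.0.16 in R 4.3.3 (TMM, quasi-likelihood F test). Slopes were fitted with a mean and a slope per group, over genes other than the axis genes. Correlations used 100000 permutations (scipy 1.17.1). The edgeR group fit, the slope fit and the GC content offset were tested on simulated counts, and the other steps were not. DESeq2 1.42.0, limma 3.58.1, a rank-sum test, other size factors, filters and row choices, covariates, a GC content offset, the label number as a block and leaving out each library were alternatives. The fit without the block, the added copies and the slow fiber covariate were chosen after seeing the data. GC content and exon overlaps came from GENCODE vM39, with 99.9% of tested genes matched and most transcripts in a later version. Promoter windows came from GRCm39.

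The 10 genes and all lists were chosen with earlier results of these data known. The genes named are these 10, the axis genes, pathway genes past an FDR of 0.05, near-identical copies, and the 3 genes most like Odc1, Amd1 and Smox. Muscle fiber markers and gene models that overlap exons of the 10 genes are also named. Pecam1 and Pdgfra were named because they passed an FDR of 0.05, and the other endothelial and fibroblast markers were given beside them. Arg1, Arg2, Oaz3 and Aoc1 were named as examples of unexpressed genes.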

Additional observations from a re-analysis of the deposited data

How the results depend on the processing

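The main comparison called 2 of the 10 genes. The count was 1 with no filter on low counts, with the label number as a replicate block over 28 libraries, and with the same 28 libraries without the block, where Sms had an edgeR FDR of 0.0665, 0.0756 and 0.0513. It was 0 with the Dbp/Bmal1 ratio, a GC content offset or the slow fiber markers in the fit, and 1 to 2 with each library left out. The count with a fold change over 1.3, 1 in the main comparison, was 0 with the Wilcoxon rank-sum test, the Dbp/Bmal1 ratio, the GC content offset and the slow fiber markers, and 1 to 1 with each library left out. Other settings, DESeq2 among them, kept the count. Of the 14 pairs of libraries with the same label number, 6 correlated above 0.1 (median 0.0119, range -0.26 to 0.427), and 3 LD libraries correlated best with their own number. These correlations cannot decide whether the label numbers pair the mice. The block itself changed no call of the 10 genes, since Sms was already lost in the same 28 libraries without it.

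Signs turned for Paox, Sat1 and Srm, none of which was called. Paox was 0.0109 and 0.00457 with limma on log2(FPKM + 0.1) and log2(FPKM + 1), 0.0918 with the Wilcoxon rank-sum test, 0.00357 with library size alone, 0.0141 with the slow fiber markers, and -0.0323 to 0.0295 with each library left out. Sat1 was -0.0385 with the replicate block, -0.0428 for these 28 libraries without it, and -0.0264 to 0.0774 with each library left out. Srm, 0.11 in the main comparison, was -0.00712 with the GC content offset.

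Of all genes called, 51.9% were higher in the main comparison (1301 genes), 65.7% and 65.6% with limma, 62.3% with the rank-sum test and 62.4% with library size alone. The number called was 1679 with DESeq2, 629 with no filter, 494 with the replicate block, 616 without it, 603 with the GC content offset, 539 with the slow fiber markers and 0 with the Dbp/Bmal1 ratio. No slope on Dbp/Bmal1 or Atf4 was called for the 10 genes under any setting, except that the count on Atf4 within ADV was 0 to 1 with each library left out, the 1 being Oaz1 without ADV mouse 28. The cause was not tested for any of these changes. With 14 and 16 mice, a gene that was not called may still differ within the interval given. The smallest difference that could be detected was not computed.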
